A study of Mus musculus with 10 samples.

Results

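The genes described here encode enzymes that make, modify or break down polyamines and other biogenic amines in the mouse uterus: Odc1, Arg1, Amd1, Srm, Sms, Sat1, Aoc1, Hnmt, Inmt and Maob. They were taken as every array probe whose platform annotation carries one of these 10 symbols, and a probe was kept when its detection p-value was under 0.05 on 2 or more of 10 arrays. This gave 13 probes of 8 genes among 45281 probes on the array, and 10 probes of 6 genes among the 23942 kept, which name 12403 genes. The family was chosen by the measured levels of Aoc1 and Arg1, low in one group, and of Inmt, high in another. Its remaining members were chosen by their place in the pathway, with earlier results of these data known. Sat1 and Amd1 are the symbol of no probe in the annotation used, so they are not analysed here.

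Polyamines (putrescine, spermidine and spermine) are small positively charged molecules that bind nucleic acids and are needed for growth and protein synthesis. Arginase cleaves arginine to ornithine, ornithine decarboxylase turns ornithine into putrescine, and aminopropyl groups from decarboxylated S-adenosylmethionine then extend putrescine to spermidine and spermine. Diamine oxidase destroys putrescine and histamine outside the cell, while methyltransferases and monoamine oxidases inactivate other amines. Ornithine decarboxylase activity in the rodent uterus is a long-known response to estrogen.

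The uteri came from outbred CD-1 mice, and 10 Illumina bead arrays were run, each on RNA pooled within a litter. In the BPA-E2 group (3 arrays) the dams had received 5 mg/kg per day of bisphenol A (BPA), a weakly estrogenic building block of plastics, by the intraperitoneal route on gestation days 9 to 21, and their daughters were injected with 300 ng of estradiol (E2). BPA-CTL offspring (3 arrays) had the same exposure and a DMSO injection, CTL-E2 offspring (2 arrays) had DMSO-exposed dams and the E2 injection, and CTL-CTL offspring (2 arrays) had DMSO at both times. All offspring were ovariectomised at 6 weeks, which removes the ovarian estrogen, and injected at 8 weeks, and uteri were taken 6 h later. The questions are what E2 did to these genes after either exposure, if the 2 responses were unequal, and what BPA exposure did with and without E2.

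The median raw signal was 122 to 132 per array, and 43.6% to 46.6% of probes were detected. Arrays of one group correlated across kept probes at r = 0.9905 to 0.9931. The BPA-exposed arrays lay on one slide and the DMSO-exposed arrays on another, so an effect of BPA exposure and of slide cannot be told apart. An E2 comparison lies within a slide. Of 7 markers of uterine tissue, 6 were kept, with a mean log2 intensity of 9.30 to 9.43 in BPA-E2, 8.84 to 9.12 in BPA-CTL, 8.92 to 8.98 in CTL-E2 and 8.42 to 8.50 in CTL-CTL arrays, and Emx2 was not. Each value comes from a whole organ, so fewer cells of a type and less RNA per cell cannot be told apart.

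All 10 kept probes were detected on 10 of 10 arrays, so none passed the detection limit through one group alone. The nearest probe outside was that of Hnmt, the cytosolic histamine methyltransferase, detected on 1 array, with raw signals from 102.2 to 133.6. The probe of Sms, spermine synthase (107.7 to 127.4), and a second Maob probe (100.7 to 113.8) were detected on 0 arrays. These signals lie near the median of the whole array, so no level or change is given for Hnmt and Sms.

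**Figure D1:**
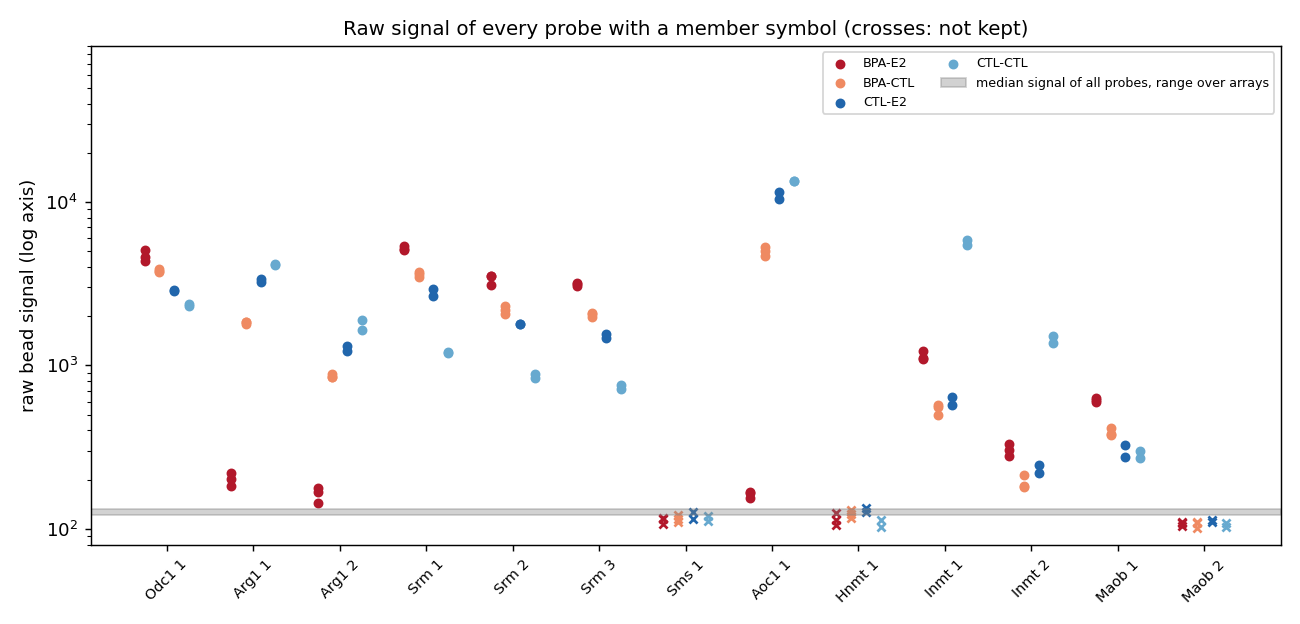
Raw bead signal (log axis) of all 13 probes with a member symbol on each of the 10 arrays, by group, with kept probes as circles and probes not kept as crosses; the grey band spans the median signal of the arrays, 122 to 132. The 3 probes not kept sit in, below or just above the band, and the Aoc1 probe sits just above it on the BPA-E2 arrays and far above it elsewhere.

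Before any fold change, the levels show 3 patterns. Odc1 and Srm, which build polyamines, and Maob were brightest on the BPA-E2 arrays. Arg1 and Aoc1 were dimmest there. Inmt was brightest on the CTL-CTL arrays.

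Arg1, arginase 1, supplies ornithine and is also known as a marker of alternatively activated macrophages. Its brighter probe, ILMN_2952275, had raw signals of 219.8, 184.2 and 202.7 on the BPA-E2 arrays, 1844.4, 1782.8 and 1846.7 on BPA-CTL, 3257.9 and 3395.6 on CTL-E2, and 4156.1 and 4113.4 on CTL-CTL. No 2 groups overlap, and the BPA-E2 arrays lie far below the other groups. The second probe, ILMN_2775157, read 143.6, 177 and 167.3 on BPA-E2, 883.9, 850.5 and 849.2 on BPA-CTL, 1232.9 and 1315.5 on CTL-E2, and 1891.8 and 1656.8 on CTL-CTL. Both probes place the groups in the same order.

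After BPA in utero, the log2 intensity of Arg1 averaged 6.61 ± 0.28 in BPA-E2 and 10.76 ± 0.08 in BPA-CTL uteri (SD, n = 3 each) by the brighter probe. The difference, -4.15 ± 0.13 (standard error from limma), is a 17.7-fold lower level with E2, and the second probe gave -3.66 ± 0.16. Arg1 was chosen with this difference known, so it is a description with no test, as are its values wherever the BPA-E2 group enters. Both sizes rest on BPA-E2 signals near background: without background correction they were -3.12 and -2.32. After DMSO in utero, the E2 arrays were lower by much less. The brighter probe gave -0.46 ± 0.16 (limma adjusted p = 0.0757), and the second probe fell by 0.68 ± 0.20 (limma adjusted p = 0.044). The second probe still passed in only 5 of 12 alternative settings. Among the others, it did not pass with litter as a block (limma adjusted p = 0.058). Nor did it pass without any single CTL-E2 or CTL-CTL array, where the change was -0.80 to -0.57. The brighter probe passed without background correction (limma adjusted p = 0.000223), in the authors' processed table (0.000373) and with a variance trend (0.00141). The difference between the E2 responses was -3.68 ± 0.20 and -2.97 ± 0.25. Among vehicle-injected offspring, Arg1 fell after BPA by 1.35 ± 0.14 (limma adjusted p = 0.000233) and 1.29 ± 0.18 (limma adjusted p = 0.00102). Among E2-injected offspring the BPA group was lower, at -5.04 ± 0.14 and -4.26 ± 0.18.

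Odc1, ornithine decarboxylase, catalyses the first committed step of polyamine synthesis. Its 1 probe, ILMN_3008406, had raw signals of 4335.5, 5092.4 and 4630.8 on BPA-E2 arrays, 3801.6, 3892.6 and 3717.7 on BPA-CTL, 2896.2 and 2863 on CTL-E2, and 2366.2 and 2299.1 on CTL-CTL. The groups do not overlap in raw signal, and the steps between them are small beside those of Arg1. Odc1 rose after BPA in both injection groups. The rise was 0.66 ± 0.10 among E2-injected offspring (limma adjusted p = 0.00196), or 1.58-fold, and 0.56 ± 0.10 among vehicle-injected offspring (limma adjusted p = 0.00424), or 1.47-fold. With E2, Odc1 differed by 0.25 ± 0.09 after BPA (limma adjusted p = 0.0807, 95% interval 0.04 to 0.46) and by 0.15 ± 0.11 after DMSO (limma adjusted p = 0.405, 95% interval -0.10 to 0.41). Neither passed. The difference after BPA passed without background correction (limma adjusted p = 0.0105), in the authors' processed table (0.0119), with a variance trend (0.00132) and without replicate 2 of BPA-CTL (0.0389). The difference between the responses was 0.10 ± 0.15 (limma adjusted p = 0.732).

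Srm, spermidine synthase, adds an aminopropyl group to putrescine. It was measured by 3 probes, which ran closely together, and it stood lowest in CTL-CTL and highest in BPA-E2 uteri. The brightest, ILMN_2809611, had raw signals of 5170.6, 5400.3 and 5068.9 on BPA-E2 arrays, 3716.6, 3451.1 and 3605.4 on BPA-CTL, 2661 and 2917.8 on CTL-E2, and 1212.1 and 1195.7 on CTL-CTL. Every group is apart from its neighbour, and the step from CTL-CTL to the next group is the widest between neighbours on the log2 scale, though not in raw signal. On the log2 scale this probe averaged 12.26 ± 0.03 in BPA-E2 and 11.75 ± 0.05 in BPA-CTL (SD, n = 3 each), and 11.39 ± 0.06 in CTL-E2 and 10.25 ± 0.01 in CTL-CTL (SD, n = 2 each).

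Srm rose with E2 after both exposures by all 3 probes. After BPA the rise was 0.51 ± 0.07 by ILMN_2809611 (limma adjusted p = 0.000935), or 1.42-fold, and the other probes, ILMN_1225880 and ILMN_2630641, gave 0.58 ± 0.08 and 0.56 ± 0.09. After DMSO it was 1.13 ± 0.08 (limma adjusted p = 9.51e-05), or 2.19-fold, and the other probes gave 1.00 ± 0.10 and 0.98 ± 0.11. The E2 response after BPA was smaller by 0.62 ± 0.11 by ILMN_2809611 (limma adjusted p = 0.00691). The other probes gave differences of -0.42 ± 0.12 and -0.42 ± 0.14 that did not pass (limma adjusted p = 0.0631 and 0.0907). These did pass without background correction (0.0175 and 0.0277), in the authors' processed table (0.0213 and 0.0332) and with a variance trend (0.00178 and 0.00301). After BPA, vehicle-injected offspring had 1.50 ± 0.08 more Srm signal (limma adjusted p = 5.25e-06), or 2.82-fold, and E2-injected offspring 0.87 ± 0.08 more (limma adjusted p = 8.59e-05), or 1.83-fold, by the brightest probe.

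Aoc1, the secreted diamine oxidase, breaks down putrescine and histamine. RefSeq (GRCm38.p6) lists 2 start sites for it, and the 250 bases before each are shown because this gene had the widest range of the 6 genes. Capitals mark TGANTCA, the AP-1 motif, which was found once, in the second stretch. Both lie on the plus strand, at chr6:48895005-48895254 and chr6:48904736-48904985.
Aoc1 start 1: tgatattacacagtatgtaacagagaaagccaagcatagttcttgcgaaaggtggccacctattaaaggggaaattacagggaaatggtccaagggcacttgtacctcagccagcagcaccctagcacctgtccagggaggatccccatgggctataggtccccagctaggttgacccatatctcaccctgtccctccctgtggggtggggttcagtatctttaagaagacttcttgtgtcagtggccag
Aoc1 start 2: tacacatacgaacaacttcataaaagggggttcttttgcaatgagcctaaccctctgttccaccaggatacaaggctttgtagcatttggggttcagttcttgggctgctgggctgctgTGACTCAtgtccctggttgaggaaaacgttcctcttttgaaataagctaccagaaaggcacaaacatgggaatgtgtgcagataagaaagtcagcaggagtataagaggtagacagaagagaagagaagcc

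The estrogen response element (GGTCA, any 3 bases, TGACC), its half-site AGGTCA, the E-box CACGTG and TGANTCA were searched on both strands of the 250 bases before each start. The full element was in 0.0639% of 32851 RefSeq windows of that length, AGGTCA in 14.0%, CACGTG in 6.02% and TGANTCA in 6.75%. AGGTCA can lie within the full element. Windows existed for 7 of the 10 genes, 9 windows in all, and none held the full element; AGGTCA and CACGTG were each found once, before 1 of the 2 Sms starts, and TGANTCA once, before the second Aoc1 start. A match is only a match of letters, and a window with no match says nothing of the factor.

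The Aoc1 probe, ILMN_2601519, had raw signals of 165.6, 169.2 and 153.5 on the BPA-E2 arrays, 5329.1, 4688.2 and 5024.1 on BPA-CTL, 10369.5 and 11508.2 on CTL-E2, and 13424.7 and 13413.1 on CTL-CTL. The BPA-E2 arrays are little above background while every other group is bright, and no groups overlap. On the log2 scale the means were 5.95 ± 0.20 in BPA-E2 and 12.24 ± 0.03 in BPA-CTL uteri (SD, n = 3 each).

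The difference with E2 after BPA was -6.29 ± 0.10, a 78.3-fold lower level, and among E2-injected offspring the BPA group was lower, at -7.43 ± 0.12 on the log2 scale. These are descriptions with no test, since Aoc1 was chosen with its level in the BPA-E2 group known. Without background correction they were -4.81 and -5.93. After DMSO in utero, Aoc1 fell with E2 by 0.45 ± 0.13 (limma adjusted p = 0.0415), or 1.36-fold. That call held in only 6 of 13 alternative settings. Among the others, it was lost with litter as a block (limma adjusted p = 0.0682). It was also lost without any single CTL-E2 or CTL-CTL array, where the change was -0.50 to -0.39. Among vehicle-injected offspring, Aoc1 fell after BPA by 1.59 ± 0.12 (limma adjusted p = 3.04e-05), or 3.01-fold. The responses to E2 differed by -5.84 ± 0.16.

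Most markers of epithelium, stroma and smooth muscle fell with E2 after BPA, as Aoc1 and Arg1 did, and those of other cell types did not. Over all kept probes 11.9% fell and 13.0% rose in that comparison. Of the other cell types, 3 of 4 adipocyte, 3 of 5 mast cell, 2 of 6 endothelium and 2 of 4 neutrophil markers rose, and 1 neutrophil marker fell. In the T and B cell list and in the erythroid list 1 marker each rose. With E2 after BPA, 8 of 9 kept epithelial markers fell and 0 rose, and their summed linear signal was 9400 to 9855 on BPA-E2 arrays and 22107 to 24399 on BPA-CTL arrays. It was 19200 to 19482 on CTL-E2 and 29091 to 29804 on CTL-CTL arrays, where 7 of 9 fell with E2. No kept marker was at 0, Epcam was not kept, and keratin 8 (Krt8) fell by 1.03 ± 0.10 after BPA. Of 8 kept macrophage markers, 2 fell and 0 rose with E2 after BPA, with a median change of -0.16. Their summed signal was 3435 to 3723 on BPA-E2 and 4004 to 4304 on BPA-CTL arrays. Of 7 stroma markers, 5 fell and 0 rose with E2 after BPA, with sums of 34424 to 36814 on BPA-E2 and 46700 to 47347 on BPA-CTL arrays. Of 6 smooth muscle markers, 4 fell and 0 rose, with sums of 68908 to 72362 on BPA-E2 and 85656 to 90397 on BPA-CTL arrays. With E2 after DMSO, 1 stroma, 2 smooth muscle and 5 macrophage markers fell, where 9.11% of all kept probes fell. The median change of the macrophage markers was -0.75 after DMSO, larger than after BPA. For Arg1 the order was the other way, with -0.46 after DMSO and -4.15 after BPA by the brighter probe. The part of any of these cell types in the levels of Aoc1 and Arg1 was not tested.

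Inmt, indolethylamine N-methyltransferase, methylates tryptamine and related amines. The 250 bases before its start (GRCm38.p6, chr6:55174991-55175240, minus strand) are shown because its pattern differed from that of the other genes, and they hold none of the 4 motifs, so there are no capitals.
Inmt start: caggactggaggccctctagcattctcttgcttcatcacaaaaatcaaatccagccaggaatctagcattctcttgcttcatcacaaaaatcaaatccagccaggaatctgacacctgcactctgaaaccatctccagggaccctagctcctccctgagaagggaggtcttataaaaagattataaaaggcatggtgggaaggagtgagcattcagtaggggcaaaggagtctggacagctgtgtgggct

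Its brighter probe, ILMN_1231445, had raw signals of 1094.9, 1230 and 1116.9 on BPA-E2 arrays, 557.9, 497.4 and 575.1 on BPA-CTL, 574 and 636.5 on CTL-E2, and 5423.6 and 5865.6 on CTL-CTL. The CTL-CTL arrays are high and the other groups low, with BPA-E2 the next. The second probe, ILMN_2803249, read 329.3, 303.6 and 279.5 on BPA-E2, 214.8, 183.3 and 180 on BPA-CTL, 218.3 and 247.2 on CTL-E2, and 1362.1 and 1507.3 on CTL-CTL, in the same picture.

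Inmt rose with E2 after BPA, by 1.15 ± 0.08 (limma adjusted p = 1.67e-05), or 2.21-fold, and by 1.06 ± 0.16 by the second probe (limma adjusted p = 0.00145), which was 0.57 without background correction. After DMSO the E2 group was lower, at -3.58 ± 0.10 and -3.47 ± 0.19, or 11.9-fold and 11.1-fold. Inmt was chosen with that difference known, so values that involve the CTL-CTL group are descriptions with no test. The responses differed by 4.73 ± 0.12 and 4.52 ± 0.25, with opposite signs after the 2 exposures. Among vehicle-injected offspring the BPA group was lower, at -3.77 ± 0.09 and -3.99 ± 0.17. Among E2-injected offspring Inmt rose after BPA by 0.95 ± 0.09 (limma adjusted p = 0.000106). The second probe rose by 0.54 ± 0.17 (limma adjusted p = 0.0495), but this call was lost with cyclic loess (0.0606), with no filter (0.0737), in a fit of the compared groups alone (0.0555), and without replicate 1 (0.133) or 2 (0.0979) of BPA-E2 or replicate 1 (0.239) or 2 (0.0814) of CTL-E2.

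By summed signal, neutrophil and macrophage markers were also highest on the CTL-CTL arrays. So were those of epithelium, stroma, smooth muscle and T and B cells, while those of mast cells, endothelium, adipocytes and erythroid cells were not. The summed signal of 4 kept neutrophil markers was 991 to 1040 on BPA-E2, 637 to 684 on BPA-CTL, 1358 to 1420 on CTL-E2 and 4400 to 4586 on CTL-CTL arrays; Ly6g and Cxcr2 were not kept. All 4 fell with E2 after DMSO and in vehicle-injected offspring after BPA, beside 9.11% and 12.7% of all kept probes. The 8 kept macrophage markers summed to 3435 to 3723 on BPA-E2 and 4004 to 4304 on BPA-CTL arrays. On CTL-E2 arrays the sum was 4819 to 5098, and on CTL-CTL arrays 8066 to 8386. With E2 after DMSO 5 of them fell. The next highest group was CTL-E2 for the neutrophil and macrophage sums, but BPA-E2 for Inmt. The part of any of these cell types in the level of Inmt was not tested.

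Maob, monoamine oxidase B, oxidises phenylethylamine and other amines at the outer mitochondrial membrane. Its kept probe, ILMN_2719069, had raw signals of 599.4, 617.5 and 634.9 on BPA-E2 arrays, 416, 381.8 and 375.1 on BPA-CTL, 277.1 and 325.3 on CTL-E2, and 270.2 and 300 on CTL-CTL. BPA-E2 stands above BPA-CTL, and the DMSO-exposed groups are lowest and overlap each other. Maob rose with E2 after BPA by 0.75 ± 0.11 (limma adjusted p = 0.0013), or 1.68-fold. After DMSO the difference was 0.00 ± 0.13 (limma adjusted p = 0.997, 95% interval -0.30 to 0.30). The responses differed by 0.75 ± 0.17 (limma adjusted p = 0.0232), a call lost without replicate 3 of BPA-E2 (0.0541), replicate 1 of CTL-E2 (0.0819) or replicate 2 of CTL-CTL (0.0832). After BPA, Maob rose by 1.27 ± 0.12 among E2-injected offspring (limma adjusted p = 0.000127), or 2.41-fold. Among vehicle-injected offspring it rose by 0.52 ± 0.12 (limma adjusted p = 0.0125), which was lost without replicate 1 of CTL-CTL (0.0963).

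**Figure D2:**
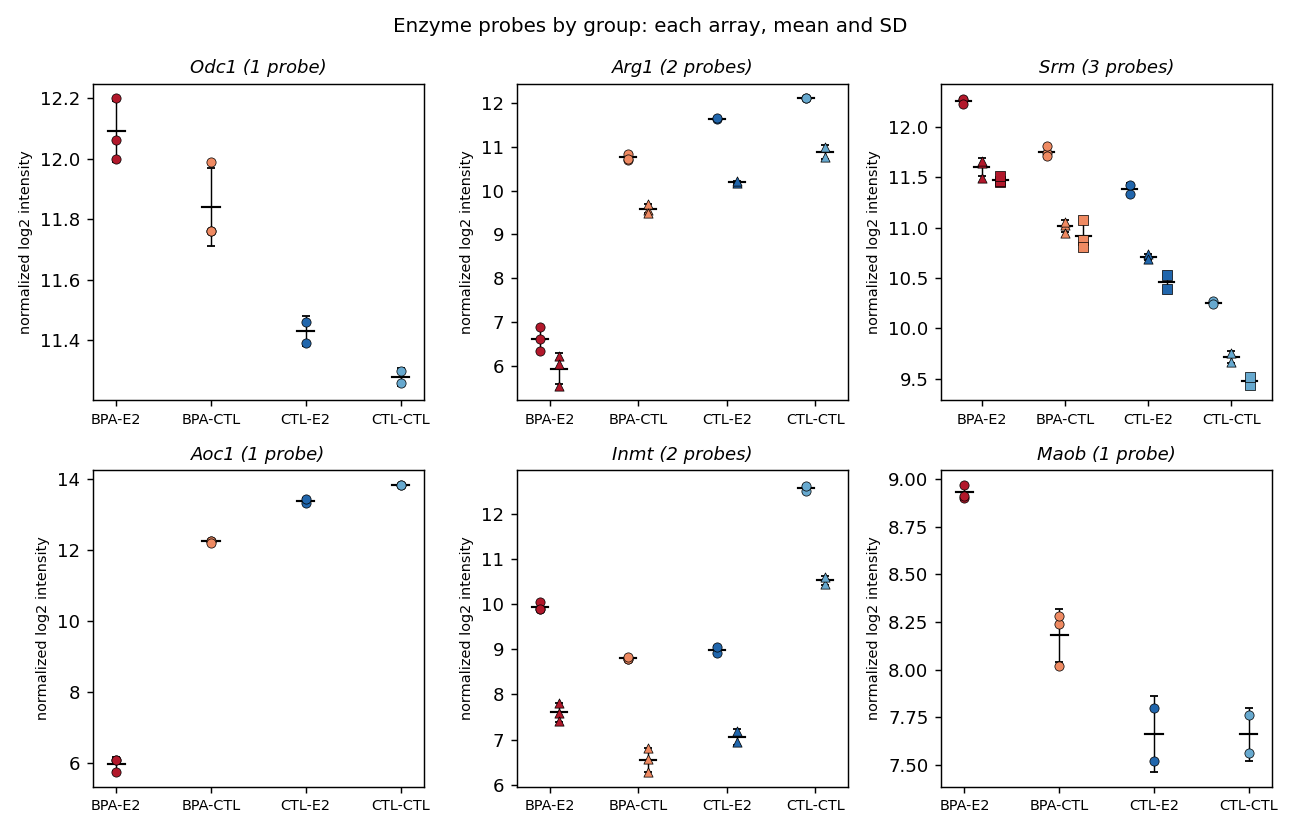
Normalized log2 intensity of the 10 kept probes on each array (points, one shape per probe), with group means (short lines) and SD (bars), for BPA-E2 (n = 3), BPA-CTL (n = 3), CTL-E2 (n = 2) and CTL-CTL (n = 2); axes differ between panels and do not start at 0. Odc1, Srm and Maob are highest in BPA-E2, Arg1 and Aoc1 are lowest there, and Inmt is highest in CTL-CTL.

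Counted by probe, 6 of 10 were higher and 3 lower with E2 after BPA, beside 13.0% and 11.9% of all 23942 kept probes, 24.9% in all. With E2 after DMSO, 3 were higher and 4 lower, beside 8.96% and 9.11%, 18.1% in all; 5 were called with litter as a block. The response after BPA was higher for 3 and lower for 4 than that after DMSO, beside 6.01% and 6.14%, 12.1% in all. After BPA, 5 were higher and 5 lower among vehicle-injected offspring, beside 14.2% and 12.7%, 26.9% in all. Among E2-injected offspring 7 were higher and 3 lower, beside 13.7% and 12.8%, 26.5% in all. The probes include several of single genes and 3 genes chosen for their size of change, so nothing is read from these counts. The same holds for the median change over the 10 probes, which pools the same probes. It was 0.53 with E2 after BPA, -0.22 with E2 after DMSO, -0.38 after BPA with vehicle and 0.76 after BPA with E2. The medians of all kept probes were 0.03, 0.03, 0.04 and 0.03.

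**Figure D3:**
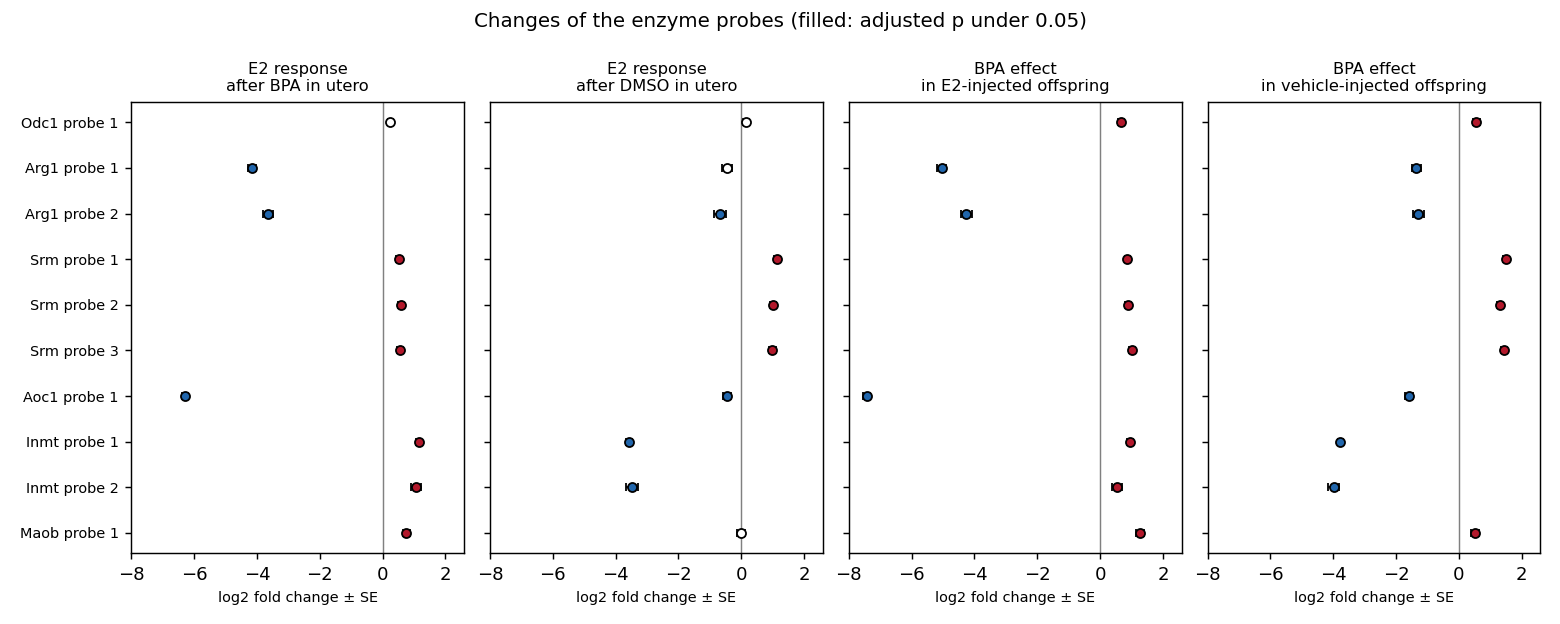
Log2 fold change (points) and standard error (bars) of the 10 kept probes in 4 comparisons, E2 over vehicle injection after each exposure and BPA over DMSO exposure under each injection; filled points have an adjusted p under 0.05. Aoc1 lies at -6.29 with E2 after BPA and -0.45 with E2 after DMSO, and Inmt at 1.15 and -3.58. Points of Aoc1 and Arg1 where the BPA-E2 group enters are descriptions with no test, filled or not. The same holds for Inmt where the CTL-CTL group enters, since these genes were chosen on those levels.

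The likeness of single genes to these patterns was measured by Pearson r over the 10 arrays, among named kept probes whose SD over the arrays was at least 0.5. These points form 4 groups, so r mostly follows the group means and is given as a description. Nearest to Aoc1 were Clca1 (r = 0.9987), Hgfac (0.9978) and Lcn2 (0.9976), and nearest to Arg1 were Clca1 (0.9989), Serinc2 (0.9975) and Lox (0.9972). Nearest to Srm were Klk1 (0.9979), Col23a1 (0.9963) and Klk1b26 (0.9961), and nearest to Odc1 were Ankrd11 (0.979), Pknox1 (0.9743) and Atf4 (0.9737). Nearest to Inmt were Il1b (0.9811), C4a (0.9783) and Olfm1 (0.9747), and to Maob Cygb (0.9831), Pla2g10 (0.9811) and Wfikkn2 (0.9787). Klk1, Klk1b26 and C4a have near-identical relatives, and which of them their probes read is uncertain.

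Of 41 other genes of polyamine, arginine and methionine metabolism, 27 had a kept probe and are counted by the brightest. With E2 after BPA 3 were higher and 3 lower, and with E2 after DMSO 2 were higher and 4 lower, with medians of 0.00 and -0.01. After BPA 6 were higher and 3 lower with vehicle and 4 higher and 4 lower with E2. The responses differed for 4 of 27. The shares of all kept probes called were 24.9%, 18.1%, 26.9%, 26.5% and 12.1% in these comparisons.

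The S-adenosylmethionine decarboxylase step, whose product feeds Srm, was read by the probe of Amd2, a mouse gene nearly identical to Amd1 for which RefSeq lists Amd1 as a synonym. Whether it also binds Amd1 RNA was not tested. It had log2 intensities of 8.12, 8.15 and 8.26 on BPA-E2, 7.81, 7.82 and 7.69 on BPA-CTL, 7.29 and 7.37 on CTL-E2, and 6.65 and 7.09 on CTL-CTL arrays, in the order of Srm. Amd2 rose after BPA by 0.85 ± 0.13 among E2-injected offspring (limma adjusted p = 0.00171) and by 0.90 ± 0.13 among vehicle-injected offspring (limma adjusted p = 0.00118). It rose with E2 after BPA by 0.41 ± 0.12 (limma adjusted p = 0.0327), and after DMSO the difference was 0.46 ± 0.14 (limma adjusted p = 0.0548).

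On the breakdown side, Smox, spermine oxidase, was bright on the CTL-CTL arrays. Its brightest probe read 9.66, 9.75 and 9.76 on BPA-E2, 9.87, 9.98 and 10.03 on BPA-CTL, 10 and 9.94 on CTL-E2, and 11.07 and 11.19 on CTL-CTL arrays on the log2 scale. It fell with E2 after DMSO by 1.16 ± 0.10 (limma adjusted p = 0.000147) and differed by -0.24 ± 0.08 with E2 after BPA (limma adjusted p = 0.06), and the responses differed by 0.93 ± 0.12 (limma adjusted p = 0.00173). In vehicle-injected offspring Smox fell after BPA by 1.17 ± 0.09 (limma adjusted p = 3.63e-05). All 5 kept Smox probes fell with E2 after DMSO. For BPA under vehicle 4 of them fell, and ILMN_2608052 did not pass (-0.49 ± 0.20, limma adjusted p = 0.103). The difference of responses did not pass by ILMN_2766469 (0.61 ± 0.25, limma adjusted p = 0.167). The probes disagreed on BPA under E2, where the brightest gave -0.24 ± 0.09 (limma adjusted p = 0.0746) and ILMN_2608052 rose by 0.68 ± 0.20 (limma adjusted p = 0.0351). Sat2, a relative of the spermidine acetyltransferase Sat1, fell with E2 after BPA by 0.82 ± 0.12 (limma adjusted p = 0.0015), and after DMSO the difference was 0.40 ± 0.15 (limma adjusted p = 0.0985). Its responses differed by -1.22 ± 0.19 (limma adjusted p = 0.00389). Dhps, which uses spermidine to make hypusine on the translation factor eIF5A, rose after BPA by 0.54 ± 0.10 among E2-injected offspring (limma adjusted p = 0.00368).

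Around arginine, the endothelial nitric oxide synthase gene Nos3 rose with E2 by 0.87 ± 0.10 after BPA (limma adjusted p = 0.000299) and by 1.49 ± 0.12 after DMSO (limma adjusted p = 0.000116), and the responses differed by -0.62 ± 0.15 (limma adjusted p = 0.0302). Nos3 also rose after BPA in vehicle-injected offspring, by 1.04 ± 0.11 (limma adjusted p = 0.000191). Ass1, argininosuccinate synthase, fell with E2 after BPA by 1.02 ± 0.11 (limma adjusted p = 0.000228), and after DMSO the difference was -0.40 ± 0.13 (limma adjusted p = 0.071). Its responses differed by -0.63 ± 0.17 (limma adjusted p = 0.0459). Oat, ornithine aminotransferase, fell with E2 after DMSO by 0.43 ± 0.08 (limma adjusted p = 0.00731). Mat2b, a regulatory subunit of the enzyme that makes S-adenosylmethionine, fell after BPA by 0.63 ± 0.09 in vehicle-injected offspring (limma adjusted p = 0.000987), while ILMN_1246268 fell by 0.57 ± 0.10 (0.0036) and ILMN_1248381 gave -0.11 ± 0.15 (0.637). Atp13a4, a P5-type ATPase of the family that transports polyamines, was not detected on any BPA-E2 array and was at least 2.57-fold lower with E2 after BPA (limma adjusted p = 9.99e-06). That bound sets the BPA-CTL mean against the lowest detected signal of each BPA-E2 array or the probe's own, whichever was higher. With E2 after DMSO it fell by 1.35 ± 0.15 (limma adjusted p = 0.000519), and among E2-injected offspring it was at least 1.42-fold lower after BPA (limma adjusted p = 0.000632).

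**Figure D4:**
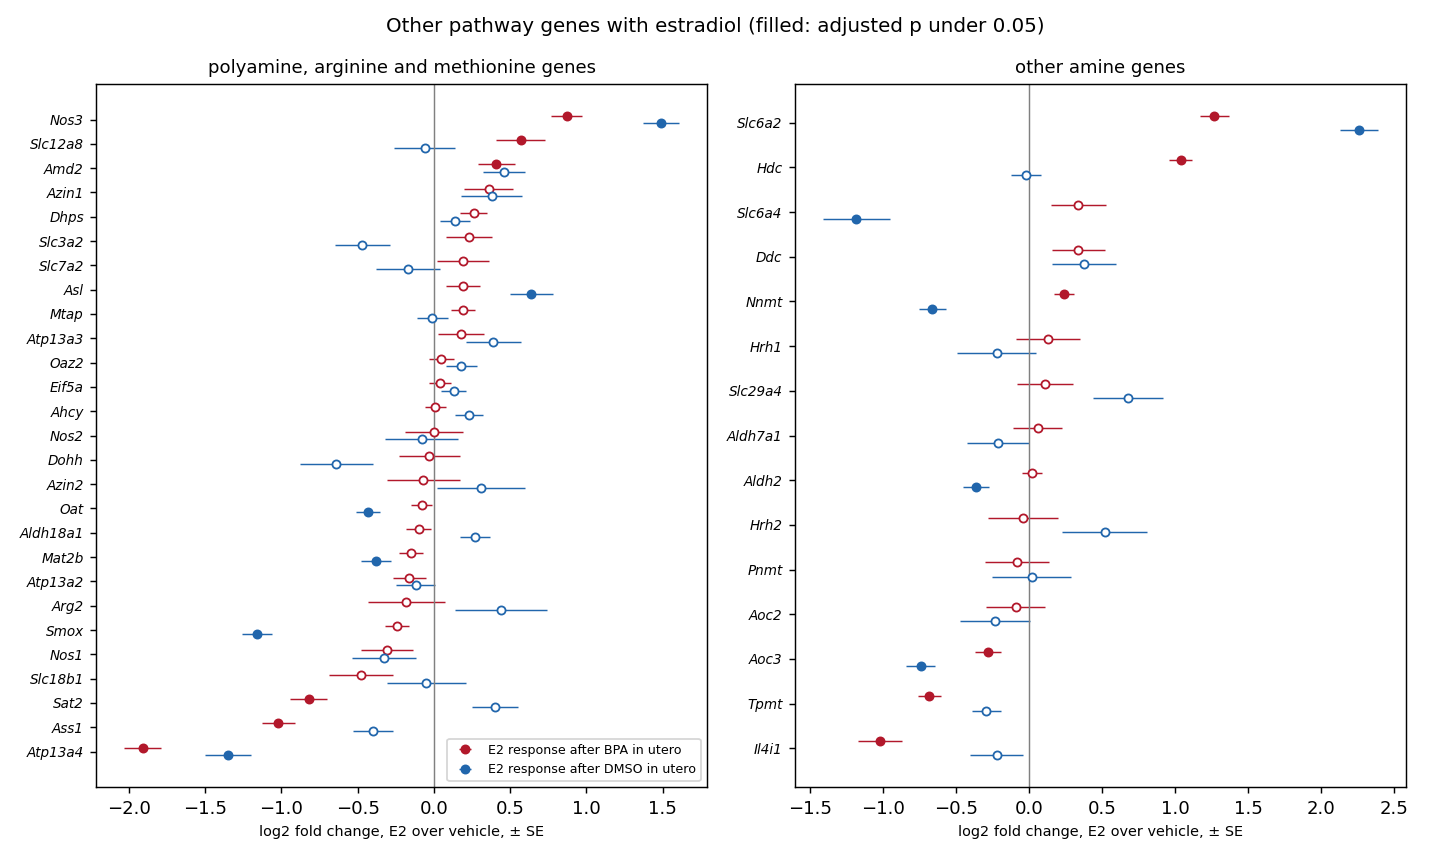
Log2 fold change with E2 (points) and standard error (bars) of the brightest kept probe of 27 other polyamine, arginine and methionine genes (left) and 15 other amine genes (right), after BPA in utero (red) and after DMSO in utero (blue); filled points have an adjusted p under 0.05. Atp13a4 and Nos3 are filled for both exposures on the left, and Slc6a2, Nnmt and Aoc3 on the right, where Nnmt lies at 0.24 after BPA and -0.66 after DMSO.

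Of 27 other genes of amine metabolism, transport and histamine handling, 15 had a kept probe. With E2 after BPA 3 were higher and 3 lower (median 0.06), and with E2 after DMSO 1 was higher and 4 lower (median -0.22). After BPA 1 was higher and 5 lower with vehicle, and 3 higher and 2 lower with E2. The responses differed for 4 of 15. Over all kept probes the shares called were 24.9%, 18.1%, 26.9%, 26.5% and 12.1% in the same order.

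Hdc, histidine decarboxylase, makes histamine, which Aoc1 and Hnmt remove. Its log2 intensities were 11.78, 11.88 and 11.88 on BPA-E2, 10.82, 10.86 and 10.73 on BPA-CTL, 11.4 and 11.23 on CTL-E2, and 11.38 and 11.3 on CTL-CTL arrays. Hdc rose with E2 after BPA by 1.04 ± 0.08 (limma adjusted p = 3.52e-05), with a difference of -0.02 ± 0.10 after DMSO (limma adjusted p = 0.902), and the responses differed by 1.07 ± 0.13 (limma adjusted p = 0.000926). After BPA, Hdc rose among E2-injected offspring by 0.53 ± 0.09 (limma adjusted p = 0.00305) and fell among vehicle-injected offspring by 0.54 ± 0.09 (limma adjusted p = 0.00254). Of 5 kept mast cell markers, 3 rose and 0 fell with E2 after BPA, with a summed signal of 1034 to 1148 on BPA-E2 and 636 to 670 on BPA-CTL arrays and 783 to 796 on CTL-E2 and 818 to 865 on CTL-CTL arrays. Over all kept probes 13.0% rose with E2 after BPA. With E2 after DMSO 2 of these markers rose and 0 fell, beside 8.96% and 9.11% of all kept probes. After BPA, 1 rose and 1 fell under E2, beside 13.7% and 12.8%. Under vehicle 0 rose and 4 fell, beside 14.2% and 12.7%. The mast cell marker Ms4a2 was not kept, and the part of mast cells in the level of Hdc was not tested.

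Among amine transporters, the noradrenaline transporter gene Slc6a2 rose with E2 after both exposures by its brightest probe, by 1.27 ± 0.10 after BPA (limma adjusted p = 4.8e-05) and by 2.26 ± 0.13 after DMSO (limma adjusted p = 2.54e-05). All 3 kept Slc6a2 probes rose with E2 after BPA, but ILMN_1247040 did not pass after DMSO (0.44 ± 0.27, limma adjusted p = 0.308). The responses differed by -0.99 ± 0.16 by the brightest probe (limma adjusted p = 0.00509), while ILMN_2669736 gave -0.43 ± 0.41 (0.572) and ILMN_1247040 gave 0.34 ± 0.35 (0.595), so the probes disagree on this difference. After BPA the brightest probe rose by 1.13 ± 0.12 under E2 and 2.11 ± 0.12 under vehicle (limma adjusted p = 0.000196 and 6.38e-06). ILMN_2669736 did not pass under E2 (limma adjusted p = 0.156), nor ILMN_1247040 under vehicle (0.235). The serotonin transporter gene Slc6a4 fell with E2 after DMSO by 1.18 ± 0.23 (limma adjusted p = 0.00903) by its brighter probe, and its responses differed by 1.52 ± 0.30 (limma adjusted p = 0.0122). That probe also fell after BPA under vehicle, by 1.60 ± 0.21 (limma adjusted p = 0.000789). The second Slc6a4 probe passed in none of these, with -0.73 ± 0.28, 0.88 ± 0.36 and -0.51 ± 0.25 (limma adjusted p = 0.107, 0.157 and 0.18).

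Of the other enzymes, Il4i1, a secreted amino acid oxidase, fell after BPA by 2.32 ± 0.17 under E2 (limma adjusted p = 2.72e-05) and by 1.52 ± 0.17 under vehicle (limma adjusted p = 0.000275), and with E2 after BPA by 1.02 ± 0.15 (limma adjusted p = 0.00138). Nnmt, nicotinamide N-methyltransferase and a relative of Inmt, fell with E2 after DMSO by 0.66 ± 0.09 (limma adjusted p = 0.00111) and fell after BPA under vehicle by 0.61 ± 0.08 (limma adjusted p = 0.000633). Its responses differed by 0.90 ± 0.11 (limma adjusted p = 0.00102). A second, dimmer Nnmt probe passed in none of these, with -0.65 ± 0.28, -0.34 ± 0.25 and 0.44 ± 0.36 (limma adjusted p = 0.148, 0.362 and 0.49). Aoc3, a cell surface amine oxidase related to Aoc1, fell with E2 after DMSO by 0.74 ± 0.10 (limma adjusted p = 0.00183). Tpmt, thiopurine methyltransferase, fell with E2 after BPA by 0.68 ± 0.08 (limma adjusted p = 0.000582) and after BPA under E2 by 0.59 ± 0.09 (limma adjusted p = 0.00216) by its brightest probe. The other kept Tpmt probes passed in neither, with -0.04 ± 0.22 and 0.08 ± 0.25 by ILMN_2800466 (limma adjusted p = 0.922 and 0.854) and -0.34 ± 0.20 and -0.40 ± 0.23 by ILMN_1226726 (0.266 and 0.237).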

How the data were processed

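Uterine RNA of 10 litter pools in 4 groups was measured on Illumina bead arrays. Per the file headers, the deposited non-normalized file gives for each probe an average bead signal, which is a linear intensity, beside its detection p-value. The authors' processed table also holds intensity values. How it was normalized is not given in the sources used here, and it served as an alternative.

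The background was estimated from the detection p-values, an offset of 16 was added and the signals were quantile-normalized and taken to log2 (neqc, limma 3.58.1, R 4.3.3). Probes detected at p under 0.05 on at least 2 arrays were kept and tested one by one. A single limma model with a mean for each of the 4 groups gave 5 comparisons, tested two-sided, with Benjamini-Hochberg adjustment over 23942 probes and calls at an adjusted p under 0.05. Of the probes, 34885 have 1 gene symbol here, 18 several and 10378 none. Precision is limited by how few arrays each group has, and the p-values reflect the spread between litter pools. Every kept probe of a member is described, with up to 4 genes of each other list per comparison (the smallest p) and the 3 most alike genes per member. The members and lists were chosen with earlier results of these data known.

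The labels give each array a litter number, which an E2-injected and a vehicle-injected array of the same exposure share. The p-values are from the model without litter unless a block is named. Deviations of such arrays from their group means correlated at -0.0303 to 0.0196. As alternatives, litter entered as a fixed term for the E2 comparisons and through duplicateCorrelation for BPA effects (statmod 1.5.0, estimated correlation 0.00952). Background correction was also left out, cyclic loess was used for scaling, and the authors' table was fitted. The filter was dropped or raised to 5 arrays, 1 probe per gene was used, a variance trend with robust estimation was added, the compared groups were fitted alone, and each array was left out. The model was also run on simulated data, of which no outcome is given here, so no result rests on that run. Promoter sequences are from RefSeq (GRCm38.p6), and figures were drawn with matplotlib 3.10.9.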

Additional observations from a re-analysis of the deposited data

Results flagged for a closer look

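The response to E2 after BPA differed from that after DMSO, on the log2 scale and in the fit's test of the difference itself, by -0.62 for 1 of the 3 Srm probes and by 0.75 for Maob. The differences for Aoc1 (-5.84), the Arg1 probes (-3.68 and -2.97) and the Inmt probes (4.73 and 4.52) are descriptions with no test, since these genes were chosen on levels that enter them.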

How the results depend on the processing

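Among 720 values of single probes under the alternatives, 681 kept their side of the threshold, 25 no longer passed, 14 newly passed and none of the called values changed sign. With 1 probe per gene symbol, where 6 member probes remain, 6 were called for each BPA effect, 5 with E2 after BPA and 3 with E2 after DMSO. Over leaving out each array in turn, 9 to 10 probes were called with E2 after BPA, 5 in each case with E2 after DMSO, 6 to 7 for the difference of responses, and 9 to 10 for either BPA effect. The replicate block of litter left 9 called with E2 after BPA, 5 with E2 after DMSO, 7 for the difference and 10 for each BPA effect, and it changed no call of a member probe other than the Aoc1 and Arg1 calls given above. Where a group is left with 1 array, that array is assumed to vary like the other groups. All these counts of member probes include Aoc1, Arg1 and Inmt, also in comparisons that hold the levels they were chosen on. Their calls there follow from that choice, and the share of all kept probes called is not set beside each count. So nothing is read from how many member probes stayed. Signal over background limits the size of the Aoc1 and Arg1 differences, whose BPA-E2 signals lie just above it. Over all kept probes, 4326 were called with E2 after DMSO, against 1368 with those groups fitted alone and 2582 to 2820 without a single CTL-E2 or CTL-CTL array. The difference of responses was called for 2908, against 1879 with the litter block. The BPA effect under E2 was called for 6349, against 4094 and 4129 without replicate 1 or 2 of CTL-E2, and that under vehicle for 6438, against 4170 without replicate 1 of CTL-CTL.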
